A study of Mus musculus with 4 samples.

Results

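The genes described here run the decision of a cell to leave G1, the gap phase before DNA synthesis: the 3 D-type cyclins Ccnd1, Ccnd2 and Ccnd3, their kinase partners Cdk4 and Cdk6, the inhibitors Cdkn1a, Cdkn1b and Cdkn2a, the pocket protein Rb1 and the transcription factor Myc. They were chosen by name for their place in this pathway, were taken from the deposited table by Ensembl gene ID, and all 10 are present among its 28399 IDs. The RNA came from 2 structures of the pubertal mouse mammary gland. The terminal end bud (TEB) is the bulbous, dividing tip that drives a duct into the fat pad, and the duct is the quieter epithelial tube that it leaves behind. Both were dissected, after collagenase digestion, from the 4th (inguinal) mammary glands of female C57/BL6 mice, for which the labels name no transgene and no treatment, and about 300 to 400 structures were pooled for a sample. The labels put the age of the mice at 5 to 6 weeks in one field and at 6 to 7 weeks when killed in another. Each structure was measured on 2 arrays, TEB 1 and 2 and duct 1 and 2, which the submitters describe as technical replicates of pooled material. P-values therefore measure the spread between arrays and say nothing about variation between mice, and the number of arrays limits the precision.

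Mitogens and hormones act on this pathway mainly through the D-type cyclins, which bind and activate the kinases Cdk4 and Cdk6. The active kinases phosphorylate Rb1 and its relatives, which then release the E2F factors that switch on the genes of DNA synthesis. Inhibitors of the Ink4 class, one of them encoded by Cdkn2a, bind the kinases themselves, and Cdkn1a and Cdkn1b of the Cip/Kip class bind cyclin-kinase complexes. Myc is a growth-promoting factor that binds the E-box letters CACGTG with its partner Max. In mice, loss of Ccnd1 is known to impair the mammary growth of pregnancy.

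Promoter sequences were at hand for Cdk4 and Cdk6, the alternative partners of the D-type cyclins. They are shown because Cdk4 stood higher in TEBs, as described further on, while the Cdk6 values of the structures overlapped, and because Myc, which is also among the 10 genes, binds the letters searched for. Each is the 250 bases before the start site on the + strand of RefSeq's GRCm38.p6 (chr10:127063285-127063534 for Cdk4 and chr5:3343643-3343892 for Cdk6), with CACGTG in capitals.
Cdk4: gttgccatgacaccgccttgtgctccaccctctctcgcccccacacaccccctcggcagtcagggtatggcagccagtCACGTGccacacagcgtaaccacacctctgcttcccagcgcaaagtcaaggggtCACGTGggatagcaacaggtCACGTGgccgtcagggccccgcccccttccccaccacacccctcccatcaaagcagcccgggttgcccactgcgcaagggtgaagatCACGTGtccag
Cdk6: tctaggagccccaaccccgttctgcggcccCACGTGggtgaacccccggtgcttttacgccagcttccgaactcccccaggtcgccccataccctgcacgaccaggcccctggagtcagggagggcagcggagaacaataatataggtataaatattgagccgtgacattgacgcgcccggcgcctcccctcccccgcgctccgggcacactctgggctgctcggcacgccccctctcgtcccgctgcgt

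The Cdk4 window held the letters CACGTG, which read the same on both strands, 4 times, at positions -172, -118, -98 and -11 counted back from the start site with the last base before it as -1. The Cdk6 window held them 1 time, at -220. Among all 32851 promoter windows of the same length in the table, several of which can belong to 1 gene, 6.02% held CACGTG at least once and 7 windows (0.0213%) held it 4 times or more. The TATA-box letters TATAAA were found, on either strand, 1 time in the Cdk6 window and not in that of Cdk4, against 12.4% of all windows. Of the E2F-type letters TTTCGCGC, TTTGGCGC, TTTCCCGC and TTTGCCGC, searched on both strands, neither window held any, and 0.256%, 0.417%, 0.895% and 0.338% of all windows did. By symbol, 6 of the 10 genes matched the promoter table, which left Ccnd1, Ccnd2, Rb1 and Myc unmatched. The remaining 7 windows, of Ccnd3, Cdkn1a, Cdkn1b and Cdkn2a, held CACGTG and TATAAA 0 times, and of the E2F-type letters 1 of the 2 Cdkn2a windows held TTTCCCGC 1 time. A match in letters is a description and does not show that a factor binds there. Whether these letters bear on the levels of Cdk4 or Cdk6 in TEBs and ducts was not tested.

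The comparison of TEB with duct asks how the regulators of G1 differ between the growing tip and the tube behind it. Ccnd1 and Ccnd2 stood furthest apart, 2.47-fold and 1.94-fold higher in TEBs, while Ccnd3 did not separate the structures. Cdk4, the inhibitor Cdkn1a and Myc were higher on both TEB arrays by smaller amounts, and the inhibitor Cdkn2a, which was dim, was lower. Rb1 had the widest spread between arrays of a structure. None of the 10 passed limma's test over all IDs, for which a change of 1.5-fold or more and a p under 0.05 after Benjamini-Hochberg adjustment were required, and 0 of all IDs (0%) passed it. At an unadjusted p from limma under 0.05 there were 4 of the 10 genes, Ccnd1, Ccnd2, Cdk4 and Cdkn1a, all higher in TEBs, against 19.7% of all IDs in either direction and 12.5% higher in TEBs. After quantile normalization or median centring the same rule gave 3 genes, with Ccnd1 and Ccnd2 higher and Cdkn2a lower, and Cdk4 and Cdkn1a no longer reached it. On the quantile-normalized values 8.89% of all IDs reached it higher in TEBs and 10.1% lower, and on the median-centred ones these shares were 9.34% and 10.2%. In bulk samples such as these, fewer cells of a type and less RNA per cell cannot be told apart.

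Without regard to size, 7 of the 10 genes separated the structures with no overlap between arrays, 6 higher and 1 lower in TEBs. Of all IDs, 53.4% did so, 33.8% higher and 19.6% lower, so this count alone does not set the 10 genes apart from the background. At least 2-fold apart without overlap was 1 of the 10 genes, Ccnd1, against 7.06% of all IDs in either direction and 4.43% higher in TEBs. On the deposited values the median difference of the 10 genes was 0.27 log2 units, beside 0.11 for all IDs. Quantile normalization puts the 4 arrays on one distribution and so removes any shift between them. It brings the median over all IDs to 0.0041 by construction, and whether the 0.11 is technical was not tested. It also lowered the difference of each of the 10 genes, so their 0.27 compares with the 0.11 and not with the 0.0041. On the quantile-normalized values 8 of the 10 genes separated without overlap, 5 higher and 3 lower, against 51.4% of all IDs, with 25.6% higher and 25.9% lower.

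**Figure D1:**
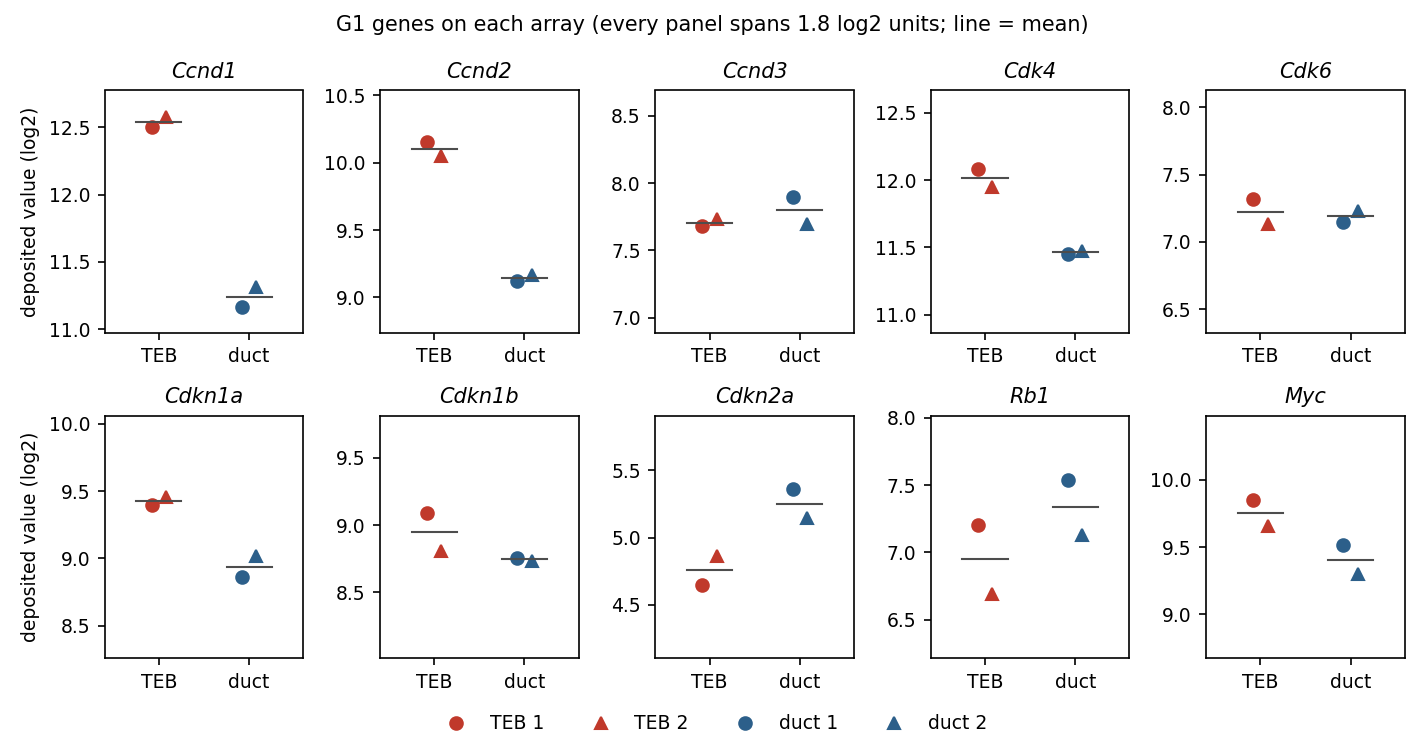
Deposited log2 values of the 10 genes on each array, 1 panel a gene, with circles for replicate 1 and triangles for replicate 2, red for TEB and blue for duct, and a line at each mean of 2 arrays. Every panel spans the same 1.8 log2 units, so the gaps can be compared by eye: Ccnd1 and Ccnd2 show the widest gaps, and the groups overlap for Ccnd3, Cdk6 and Rb1.

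Ccnd1 (ENSMUSG00000070348) encodes cyclin D1, the D-type cyclin most closely tied to mammary growth. On the deposited log2 scale it measured 12.50 and 12.58 on the TEB arrays and 11.17 and 11.31 on the duct arrays. Both TEB values lay above both duct values, and the smallest of the 4 pairings of a TEB with a duct array was still a difference of 1.19 log2 units. The means were 12.54 ± 0.05 (SD, n = 2) and 11.24 ± 0.10 (SD, n = 2), a log2 difference of 1.30 with SE 0.17 and a 95% interval of 0.84 to 1.77 from limma. Its adjusted p from limma was 0.083, and 97.6% of all IDs had a lower difference. After quantile normalization the Ccnd1 difference was 1.14 log2 units, or 2.20-fold.

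Ccnd2 (ENSMUSG00000000184) encodes cyclin D2, which binds the same kinases. On the log2 scale it stood at 10.15 and 10.05 in TEBs and 9.12 and 9.17 in ducts. The structures were again clear of each other, with 0.88 log2 units between the lower TEB and the higher duct array. The Ccnd2 difference was 0.96 log2 units with SE 0.17 and a 95% interval of 0.50 to 1.41, at an adjusted p from limma of 0.121. Of all IDs, 94.8% had a lower difference. After quantile normalization it was 0.74 log2 units, or 1.66-fold.

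Ccnd3 (ENSMUSG00000034165), the third D-type cyclin, showed another pattern. Log2 levels of Ccnd3 were 7.68 and 7.74 in TEBs and 7.90 and 7.70 in ducts, so the groups overlapped. The Ccnd3 difference was -0.09 log2 units with a 95% interval of -0.57 to 0.39, which leaves out a change as large as the point estimates for Ccnd1 and Ccnd2. After quantile normalization Ccnd3 stood at -0.27 log2 units, with both TEB values (7.56 and 7.68) below both duct values (7.92 and 7.86).

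The calls for Ccnd1 and Ccnd2 depended on how limma modelled variance. When its prior variance followed brightness, an alternative fit, both passed the same thresholds, with adjusted p from limma of 0.0048 for Ccnd1 and 0.012 for Ccnd2. In that fit 2 of the 10 genes were called, both higher in TEBs, against 3.75% of all IDs called higher and 5.23% in either direction. On quantile-normalized values the same fit called both, with adjusted p from limma of 0.0095 and 0.023. Without TEB replicate 1 that fit called 0 of the 10 genes and 0.173% of all IDs, and without TEB replicate 2 it called 0 of the 10 and 0.366% of all IDs. Without duct replicate 1 it called 2 of the 10 genes and 11% of all IDs, and without duct replicate 2 it called 2 of the 10 and 4.89% of all IDs. On the deposited values with limma's usual prior, an adjusted p under 0.10 with the same fold floor was reached by 1 of the 10 genes, Ccnd1, against 1.93% of all IDs, 1.46% higher in TEBs. With all 4 arrays kept, the adjusted p from limma ranged over the alternatives from 0.0048 to 0.174 for Ccnd1. For Ccnd2 it ranged from 0.012 to 0.190. Both genes kept their direction in all 16 alternatives run, but for most of these that was fixed in advance. A changed variance model, block or filter leaves the difference as it was, and leaving out 1 array cannot turn a gene without overlap. Only quantile normalization and median centring could have turned it. There the differences were 1.14 and 1.19 log2 units for Ccnd1 and 0.74 and 0.84 for Ccnd2.

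**Figure D2:**
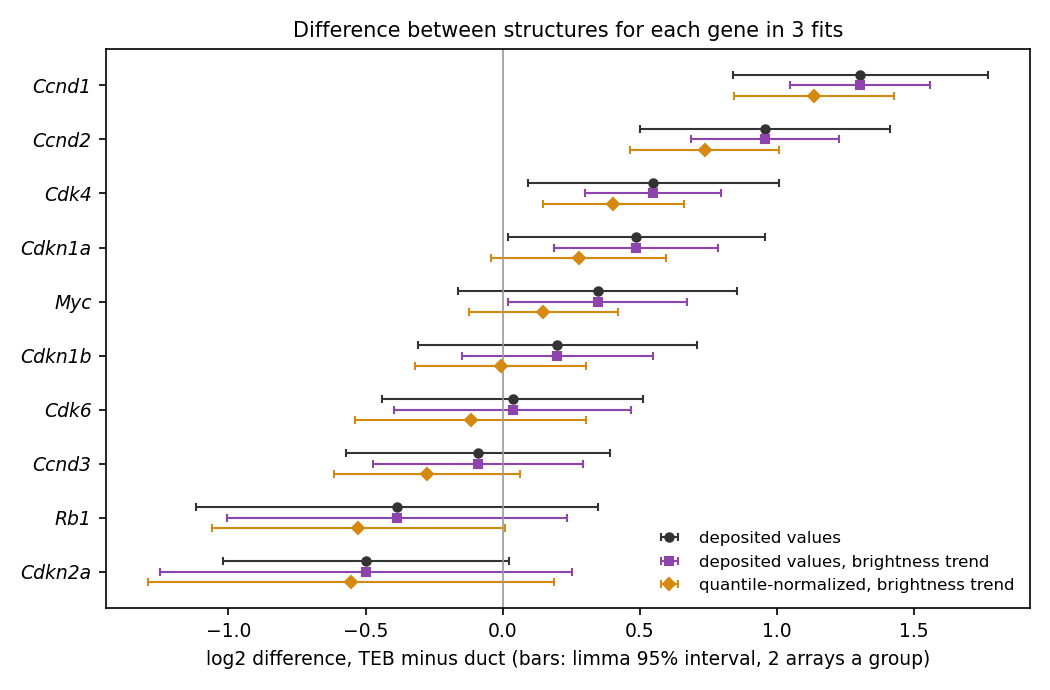
Log2 difference of TEB minus duct for each gene in 3 limma fits: the deposited values, the same with a prior variance that follows brightness, and quantile-normalized values with that prior. Points are differences of means of 2 arrays and bars are 95% intervals: those of Ccnd1 and Ccnd2 lie above 0 in all 3 fits, and those of Ccnd3, Cdk6, Cdkn1b, Cdkn2a and Rb1 include 0 in all 3.

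Cdk4 (ENSMUSG00000006728) encodes a kinase that D-type cyclins activate. Its log2 levels were 12.08 and 11.95 in TEBs and 11.45 and 11.48 in ducts. The TEB values were the higher ones, with 0.47 log2 units between the nearest arrays. The Cdk4 difference was 0.55 log2 units (1.46-fold) with SE 0.17 and a 95% interval of 0.09 to 1.01, at an adjusted p from limma of 0.208. In the fit with a brightness trend its adjusted p from limma was 0.038, but the change lay below the floor of 1.5-fold. Without that floor, 3 of the 10 genes passed in the trend fit, all higher, against 3.95% of all IDs passing higher. After quantile normalization the Cdk4 difference was 0.40 log2 units and its adjusted p from limma with the trend was 0.093.

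Cdk6 (ENSMUSG00000040274), the kinase that can stand in for Cdk4, did not separate the structures. It measured 7.32 and 7.13 in TEBs and 7.15 and 7.23 in ducts on the log2 scale, so the 2 duct values fell between the 2 TEB values. The Cdk6 difference was 0.04 log2 units with a 95% interval of -0.44 to 0.51, and it turned to -0.12 after quantile normalization and to -0.08 after median centring.

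Among the inhibitors, Cdkn1a (ENSMUSG00000023067), a target of p53 that binds cyclin-kinase complexes, was on the same side as Ccnd1 and Ccnd2. Its log2 levels were 9.39 and 9.46 in TEBs and 8.86 and 9.02 in ducts, with the TEB arrays higher and no overlap. The Cdkn1a difference was 0.49 log2 units (1.40-fold) with SE 0.18 and a 95% interval of 0.02 to 0.96, at an adjusted p from limma of 0.244. After quantile normalization it was 0.28 log2 units, and in the fit with a brightness trend on the deposited values the adjusted p from limma was 0.079.

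Cdkn1b (ENSMUSG00000003031) encodes another Cip/Kip inhibitor, a known brake on exit from quiescence. The 2 TEB arrays gave log2 levels of 9.09 and 8.80 and the 2 duct arrays 8.76 and 8.73. TEB 1 was the high array, and TEB 2 lay only 0.05 log2 units above the higher duct array. The Cdkn1b difference was 0.20 log2 units with a 95% interval of -0.31 to 0.71. It was 0.34 without TEB replicate 2 and 0.06 without TEB replicate 1, and after quantile normalization it was -0.01 and the groups overlapped.

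Cdkn2a (ENSMUSG00000044303) encodes 2 unlike proteins from alternative first exons, an Ink4 inhibitor of Cdk4 and Cdk6 and the p53-stabilising protein Arf, and the single value per ID cannot tell their transcripts apart. Its log2 levels were 4.64 and 4.87 in TEBs and 5.36 and 5.14 in ducts. Ducts were higher without overlap, by 0.28 log2 units between the nearest arrays. The Cdkn2a difference was -0.50 log2 units with a 95% interval of -1.02 to 0.02 (1.41-fold higher in ducts), at an adjusted p from limma of 0.266, and 12.0% of all IDs had a lower difference. After quantile normalization it was -0.55 and after median centring -0.61. Cdkn2a was the dimmest of the 10 genes: only 31.3% of IDs were dimmer, and the lower quartiles of the arrays lay at 4.48 to 4.53. Detection calls were not used here, so whether its signal exceeded background on these arrays is unknown.

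Rb1 (ENSMUSG00000022105), the pocket protein that the cyclin-kinase pairs phosphorylate, varied most of the 10 genes between arrays of 1 structure. Log2 levels of Rb1 were 7.21 and 6.69 in TEBs and 7.54 and 7.13 in ducts. TEB 1 lay above duct 2, so the groups overlapped. Replicate 2 was the lower array in both structures, and each TEB value lay below the duct value of the same number. With the replicate block the SE of the Rb1 difference was 0.17, against 0.28 without it. The adjusted p from limma was 0.312 with the block and 0.480 without it. The means were 6.95 ± 0.36 (SD, n = 2) and 7.33 ± 0.29 (SD, n = 2), a difference of -0.39 log2 units with a 95% interval of -1.12 to 0.35. After quantile normalization the TEB values, 7.10 and 6.66, lay below the duct values, 7.54 and 7.28, and the difference was -0.53 log2 units. The difference was -0.13 without TEB replicate 2 and -0.64 without TEB replicate 1.

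Myc (ENSMUSG00000022346), an immediate responder to mitogens, had log2 levels of 9.85 and 9.66 in TEBs and 9.51 and 9.30 in ducts. Both TEB values were the higher ones, with 0.14 log2 units between the nearest arrays. The Myc difference was 0.35 log2 units (1.27-fold) with SE 0.19 and a 95% interval of -0.16 to 0.86, at an adjusted p from limma of 0.384. After quantile normalization it was 0.15 log2 units, the gap between the nearest arrays was 0.02, and 63.4% of all IDs had a lower difference.

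By size, the differences therefore ran from Ccnd1 through Ccnd2, Cdk4, Cdkn1a, Myc, Cdkn1b, Cdk6, Ccnd3 and Rb1 to Cdkn2a. The limma intervals of all neighbours in this order overlapped. The intervals of Ccnd1 (0.84 to 1.77) and Ccnd3 (-0.57 to 0.39) did not.

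**Figure D3:**
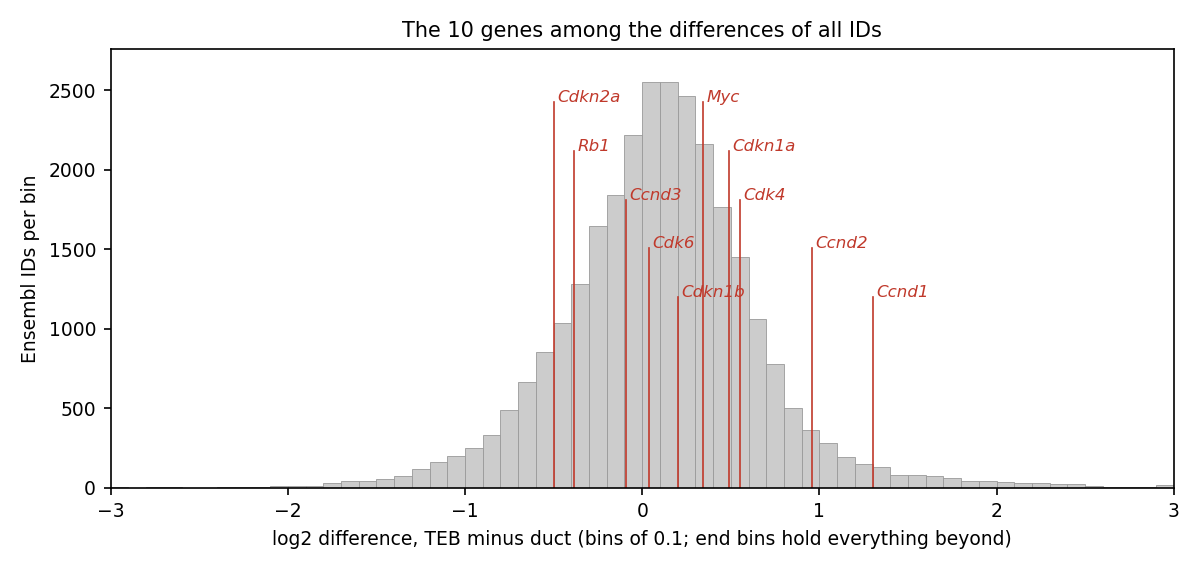
Histogram of the log2 difference of TEB minus duct over all 28399 IDs, in bins of 0.1, with a red line at each of the 10 genes. Ccnd1 at 1.30 and Ccnd2 at 0.96 lie in the upper tail, and the other 8 genes lie between -0.50 and 0.55.

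Ratios between related genes on the same array do not move with an offset shared by all genes of that array. Only their change between structures is read here, since the level of such a ratio also depends on the probes. For 7 of the 8 ratios examined the structures did not overlap. No such share was computed for other gene pairs, and of single IDs 53.4% already separated without overlap. The ratios share genes, among them Ccnd1, and each shift restates the differences of its single genes, so they are not independent. With 2 arrays a group an exact permutation test (two-sided) cannot go below p = 0.333, and these 7 reached that value, with p = 0.381 after Benjamini-Hochberg adjustment over the 8 ratios. These tests therefore cannot separate any ratio from chance, and the ratios are given as descriptions.

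Within the D-type cyclins, the log2 ratio of Ccnd1 to Ccnd3 was 4.83 and 4.84 on the TEB arrays and 3.27 and 3.61 on the duct arrays, a shift of 1.39 log2 units. That of Ccnd2 to Ccnd3 was 2.47 and 2.31 against 1.22 and 1.47, a shift of 1.05. The ratio of Ccnd1 to Ccnd2 shifted less, by 0.35, from 2.05 and 2.14 in ducts to 2.35 and 2.53 in TEBs. Measured against Ccnd3 on the same array, both other D-type cyclins were thus at least 0.84 log2 units higher in every pairing of a TEB with a duct array.

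The log2 ratio of Cdk4 to Cdk6 was 4.76 and 4.81 in TEBs and 4.30 and 4.25 in ducts. Its shift was 0.51 log2 units, with SDs of 0.04 in each structure. These SDs rest on 2 technical arrays of pooled material and do not measure variation between mice.

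Cyclin D1 was also set against the inhibitors. The log2 ratio of Ccnd1 to Cdkn1a was 3.11 and 3.12 in TEBs and 2.31 and 2.29 in ducts. The arrays of a structure lay close together, with SDs of 0.0075 and 0.015 (n = 2 each, technical arrays of pooled material). These were the smallest SDs among the 8 ratios in TEBs and in ducts. The largest was 0.27, for Myc to Cdkn1a in ducts. The structures differed in the ratio of Ccnd1 to Cdkn1a by 0.82 log2 units, or 1.76-fold. Cdkn1a was thus higher in TEBs by less than Ccnd1 was, on every array pairing. The ratio of Ccnd1 to Cdkn1b was 3.42 and 3.77 against 2.41 and 2.57, a shift of 1.10 log2 units. Between the 2 inhibitors, the ratio of Cdkn1a to Cdkn1b was 0.31 and 0.65 in TEBs and 0.10 and 0.29 in ducts, and the nearest arrays were 0.02 apart. The ratio of Myc to Cdkn1a overlapped between the structures, at 0.45 and 0.20 in TEBs and 0.65 and 0.28 in ducts (exact permutation p = 0.667, also after adjustment).

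**Figure D4:**
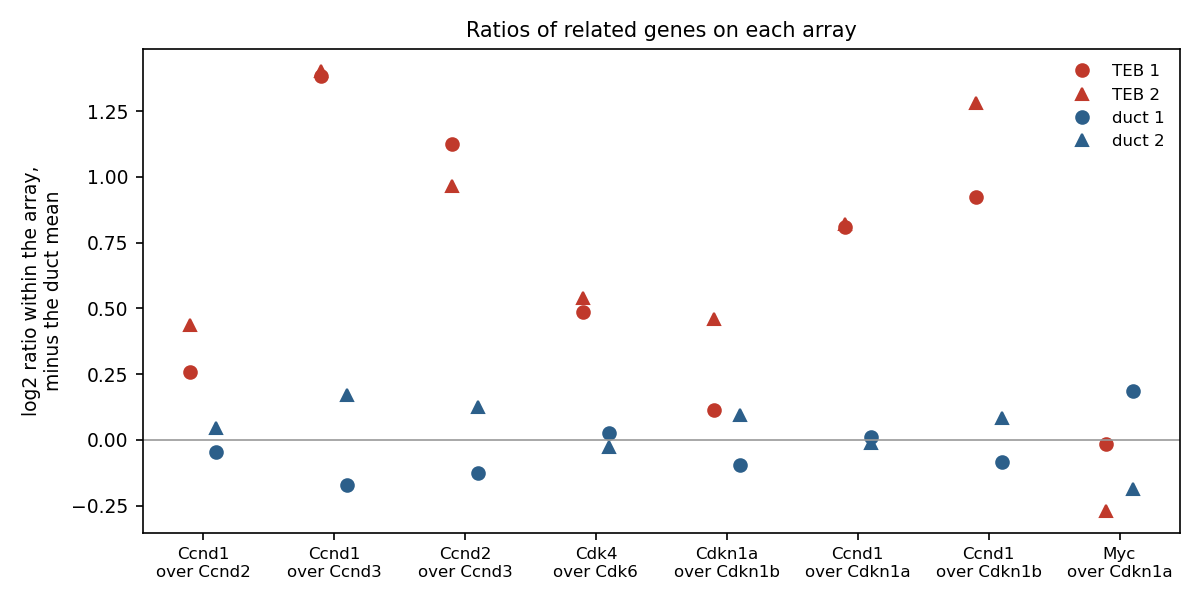
Log2 ratio of 2 genes on the same array, minus the mean of the duct arrays, for 8 pairs of related genes, with circles for replicate 1 and triangles for replicate 2, red for TEB and blue for duct. The ratios of Ccnd1 or Ccnd2 to Ccnd3 and of Ccnd1 to Cdkn1b shift by 1.05 to 1.39 log2 units, and the ratio of Myc to Cdkn1a overlaps between structures.

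Likeness between the 10 genes over the 4 arrays was measured as a distance. After subtraction of each gene's mean, the profiles of Cdk4 and Cdkn1a were the nearest pair, at a Euclidean distance of 0.18 log2 units. Their own profiles had lengths of 0.56 and 0.50. Cdk6 and Cdkn1b lay 0.19 apart, but the profile of Cdk6 was nearly flat, with a length of 0.14, so this distance does not show that they varied together. Among the 10 genes, the nearest to Myc was Cdkn1b at 0.21, and the nearest to Ccnd1 was Ccnd2, at 0.38. Cell cycle marker IDs outside the 10 lay nearer, at 0.047 from Cdk4, 0.107 from Cdkn1a, 0.064 from Myc and 0.098 from Ccnd1. Cdkn2a lay 0.42 from Ccnd3, and Rb1 had no other of the 10 genes within 0.5. The profiles of Cdkn1b and Ccnd3 were also short, with lengths of 0.28 and 0.17, so distances to them show little. The 257 other genes compared also include cell cycle marker IDs. Of these 257, between 14 (for Cdkn2a) and 131 (for Myc) lay within 0.5 of a gene. The number was 123 for Cdk4, 106 for Cdkn1a, 34 for Ccnd1 and 15 for Rb1. The nearness of Cdk4 and Cdkn1a is thus not particular to that pair.

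The decimals of the deposited values bear on how each gene was measured. The decimals of the 4 values of Ccnd1, Cdk4 and Cdkn1a fit means of at least 2 numbers of 5 decimals. For Cdkn2a and Myc that smallest number was 3, for Cdkn1b 4, for Ccnd2 8, for Cdk6 9 and for Ccnd3 11. For Rb1 it was 28. These are the smallest numbers that the decimals allow if the values are means, which the sources used here do not say. They are then lower bounds and do not order the genes by how many numbers were averaged.

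Other genes of the pathway, such as the E-type cyclins and the E2F factors, were not analysed here, since no table at hand paired their Ensembl IDs with names. In their place stood 3 lists of unnamed mouse cell cycle marker IDs, derived here from the marker pairs of the R package scran. An ID entered a list if it came first in pairs more often than second for that phase. For each other phase it had to come second more often than first. Being in a list is thus an output of this rule and not a published assignment to a phase. Ccnd1 is in the list for G2 and mitosis, Cdk4 is in the list for S phase, and the other 8 genes are in none. Ccnd1, with a difference of 1.30 log2 units, lay close to the median of its list, 1.21, and Cdk4, with 0.55, close to that of the S list, 0.58. The list for G1 had a median of 0.49 and held none of the 10 genes. By limma's test, 0 of the 250 measured IDs of the 3 lists passed. At an unadjusted p from limma under 0.05 there were 141, 138 higher and 3 lower in TEBs, against 19.7% of all IDs. The 250 include Ccnd1 and Cdk4, which are among the 141. In the fit with a brightness trend 90 passed higher and 2 lower, and the others did not pass, beside the 5.23% of all IDs given above. These 92 became 6 without TEB replicate 1, 15 without TEB replicate 2 and 131 without duct replicate 1, where the shares of all IDs also moved, as given above.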

How the data were processed

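Values of 4 single-colour arrays, 2 for TEBs and 2 for ducts, were read from the deposited table of log2 values, one per Ensembl ID. RMA and the genome build mm9 are named as the authors' per the submitters' processing notes, and per the labels' protocols 1.5 microg of total RNA gave biotinylated cRNA. For versions, filters and how values were formed per ID, the sources used here say nothing, and the log2 scale was read from the values. All 28399 IDs were fitted with limma 3.58.1 in R 4.3.3 (lmFit, eBayes; 2 residual and 2.51 prior degrees of freedom), with no block or filter, and p-values were adjusted over all IDs. The alternatives were quantile normalization, median centring, a brightness filter, a brightness trend, robust moderation, other thresholds, the replicate block and leaving out each array. Permutation tests used scipy 1.17.1, and the marker lists were derived here from the marker pairs of scran 1.30.0. The fit was tested on simulated data.

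The 10 genes, lists and tests were chosen with earlier results of these data known. All 10 genes are named. Their symbols came with the choice of IDs, since no table at hand pairs Ensembl IDs with symbols, and for that reason tissue and cell type markers were not analysed here. Deviations of same-numbered arrays correlated with r = 0.086, so the numbers were not treated as pairs. Promoter windows come from RefSeq (GRCm38.p6), a newer build than the authors'.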

Additional observations from a re-analysis of the deposited data

How the results depend on the processing

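The direction held in every alternative for Ccnd1, Ccnd2, Cdk4, Cdkn1a, Cdkn2a, Rb1 and Myc, but for 3 genes near 0 it did not. Alternatives that change only the variance model, block or filter leave the difference as it was. Leaving out 1 array cannot turn a gene without overlap. For the genes that held, other than Rb1, only quantile normalization and median centring could thus have changed the direction. Cdk6 (0.04) turned to -0.12 with quantile normalization, -0.078 with median centring, -0.055 without TEB replicate 1 and -0.0024 without duct replicate 1, with or without the brightness trend, and ranged from -0.055 to 0.127 without single arrays. Cdkn1b turned to -0.0074 with quantile normalization in both fits, and Ccnd3 to 0.011 without duct replicate 1 in both (-0.19 to 0.011 without single arrays). The causes were not tested. The ratio of Myc to Cdkn1a (-0.14) turned to 0.046 without duct replicate 1 (-0.33 to 0.046 without single arrays).

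The count of members called moved from 0 to 2 with the trend, with the brightness filter (9 of the 10 genes tested, without Cdkn2a; 10% of those IDs called) and with the trend after quantile normalization or median centring, to 3 with the trend and no fold floor, and to 1 (Ccnd1) when the adjusted p had to be under 0.10. With the trend and without single arrays it was 0 to 2. The combined settings were chosen after seeing the data. For all IDs, 0 became 1485 with the trend, 1426 with the filter, 1466 and 1586 with the trend after quantile normalization and median centring, and for the 250 marker IDs 92, 76, 83 and 90. With the trend and without TEB 1, TEB 2, duct 1 or duct 2 in turn, 49, 104, 3130 and 1389 of all IDs and 6, 15, 131 and 90 marker IDs were called. Without single arrays, 1 to 2 members lay 2-fold or more apart with no overlap (2 without TEB replicate 2, Ccnd2 added), and all such IDs 2004, 873 with the filter, where fewer were tested, and 2395 to 3318 without single arrays. With the replicate block 0 of the 10 genes were called, as without it, and the adjusted p from limma of Ccnd1 was 0.174. Fits without 1 array take the spread of a single remaining array from the other group. Without detection calls, signal over background, which limits Cdkn2a most, is unknown.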
